A study of Danio rerio with 67 samples.

Results

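Oligodendrocytes from the injured spinal cord of adult zebrafish were compared, cell by cell, with the other cells sorted from the same tissue. They were chosen by their level of plp1b, a major protein of central myelin, at 10000 CPM or more (counts of a gene scaled to a common total of gene reads per cell), which held for 17 of the 32 lesion cells and left 15 other lesion cells under that level. The whole series holds 67 single cells, and the same threshold divided its sham group into 29 oligodendrocytes and 6 other cells. All cells came from adult Tg(olig2:eGFP) fish, in which olig2 regulatory sequence controls a green fluorescent protein, so any cell with an active transgene could be sorted. Lesion fish had their cord cut 5 mm caudal to the junction with the brainstem and were sampled 7 days later, from about 0.5 mm of tissue on the rostral side of the cut. Sham fish went through the same operation with the cord left intact, and the matching level was taken. Tissue of 9 cords was pooled in each group before the sort, so each group is 1 pool and the fish a cell came from is not recorded in the sources used here.

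Oligodendrocytes wrap axons of the central nervous system with myelin, a stack of compacted membrane that is rich in lipid and in a few small proteins. They arise from oligodendrocyte progenitor cells (OPCs), which carry proteoglycans and neurotransmitter receptors at their surface and which can divide and replace lost oligodendrocytes after injury. In the zebrafish cord, olig2 is also active in progenitors that line the central canal, the ependymo-radial glia, some of which give rise to motor neurons.

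Because the split was made on plp1b in the same cells, and because 1 pool gives no replicate of the condition, every difference between oligodendrocytes and other lesion cells is a description without a test. Reads were summed over the cells of each side. The log2 ratio is that of oligodendrocytes over other cells after adding 1 CPM to each side, folds are ratios of the 2 sums without that addition, and both carry counting error only, since PCR copies were counted without molecular identifiers and are not independent molecules. Symbols are those of a gene name table that spells many zebrafish genes as their human relatives, and a gene ID is added where several genes share a symbol. Each lesion cell was also left out in turn, and a cell is called by its replicate number, an other cell unless stated. For a gene with both sums given, the value without the cell is added where the ratio moved over 1.5 times toward or past equal sums. For a list median the largest shift in either direction is given where it was over 1.5 times. Shifts of single genes away from equal sums are not given, so an unmarked ratio can still rest on 1 cell. Without 1 cell the log2 ratio of apoeb rose from 7.01 to 9.46, and that of bcan fell from -6.91 to -10.24.

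The sides had similar depth. Oligodendrocytes had 326470 to 620323 reads on genes (median 436847), and other lesion cells had 280129 to 553819 (median 415648). Oligodendrocytes had 1503 to 5064 genes with a read (median 2875), and other cells 1527 to 5140 (median 3464). In each oligodendrocyte the 50 genes with the most reads took 31.4% to 54.6% of the reads, against 20.5% to 30.6% in other cells. Sides were not balanced over the sort plate, as 7 oligodendrocytes and 10 other cells lay in rows B to E, against 10 oligodendrocytes and 5 other cells in F to H. The median log2 ratio of all 7676 measured genes was -0.42, and list medians are read against it. A gene counted as measured at 5 CPM or more over all lesion cells with at least 5 reads in at least 3 of them. Reads on 1 side alone were enough, and the direction of such a gene follows in part from this filter. This held for 6 of 25 OPC markers, 3 of 14 perineuronal matrix genes and 10 of 20 neuron markers. It also held for 5 of 13 motor neuron factors, 4 of 11 glutamate receptors and 11 of 34 synaptic adhesion genes.

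The threshold lay in a wide gap. plp1b, on chromosome 5 at 22764321 to 22776298 of GRCz10, was at 19557 to 83675 CPM in oligodendrocytes (median 43297), against 0 to 614 CPM in other lesion cells (median 3.97). The lowest oligodendrocyte was therefore at 19557 CPM and the highest other cell at 614 CPM, with no cell between them. A threshold of 5000 CPM of plp1b gave the same sides, and so did 5000 CPM of mbpa. Among the other cells, 4 had over 100 CPM of plp1b and held 98.2% of the plp1b reads of that side, while the remaining 11 reached at most 9.95 CPM.

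The label oligodendrocyte was compared with other marker genes of the same cells. The sorted cells are called OPCs in the labels, yet all 12 measured oligodendrocyte markers besides plp1b were at least 2-fold higher in the cells over the threshold. That set leaves out cnp, a classical oligodendrocyte gene in mammals, which was lower in these cells (log2 ratio -5.45). In the longer list of compact myelin and membrane proteins, given below, 3 of 25 measured members were at least 2-fold lower. Of 12 measured OPC markers 10 were at least 2-fold lower in them and 1 was at least 2-fold higher. The shares over all measured genes were 39.6% lower and 26.1% higher. Of the lower OPC markers, olig1 lost that call without lesion cell 5 and vcanb without lesion cell 6. SOX6, cspg5a, NKX2-2 and ncana had no read in oligodendrocytes. SOX5, cspg5b and PTPRZ1 (ENSDARG00000051814) did not reach 5 reads in any oligodendrocyte. All of these were measured through the other cells alone, so their direction follows in part from the filter and is little check of the label. mbpa, a myelin basic protein gene on chromosome 19 at 22229724 to 22248307, was at 8382 to 52658 CPM in oligodendrocytes (median 19290) and at 0 to 1394 CPM in other cells (median 1.98). No other cell reached the lowest oligodendrocyte, and the sums differed 92.9-fold (95% interval of the counts 88.2 to 97.9). bcan, which encodes the proteoglycan brevican and lies on chromosome 16 at 29375522 to 29400049, had at least 5 reads in 1 of 17 oligodendrocytes (5.88%, exact interval 0.149% to 28.7%) and in 13 of 15 other cells (86.7%, 59.5% to 98.3%). Its sum was 14.7 CPM in oligodendrocytes and 1889 CPM in other cells, and 107 of the 111 reads in oligodendrocytes came from a single cell. hapln1a, a link protein that ties proteoglycans to hyaluronan, on chromosome 5 at 45890469 to 45905545, was detected in 1 oligodendrocyte and in 7 other cells, with sums of 4.12 and 764 CPM.

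**Figure D1:**
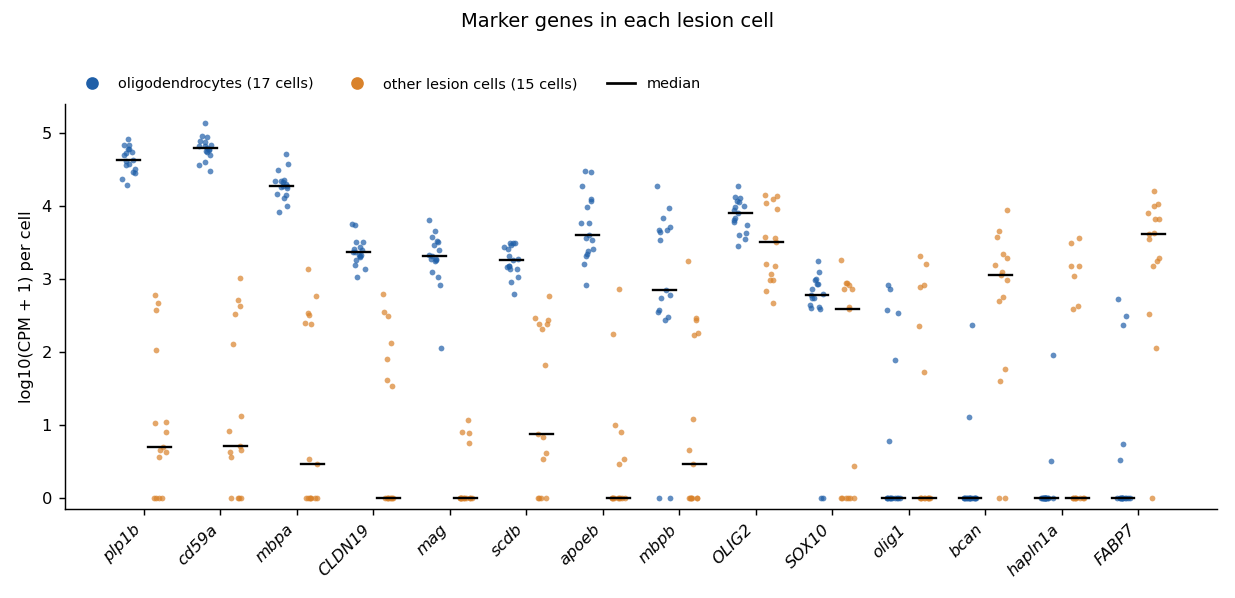
Level of 14 marker genes in each lesion cell as log10(CPM + 1), with 17 oligodendrocytes (blue, left of each pair) and 15 other lesion cells (orange, right), 1 point per cell and the median as a black line. The points of plp1b do not overlap between the sides because the split was made on it. Those of cd59a, mbpa, CLDN19, mag, scdb and apoeb do not overlap either, and the share of all measured genes without overlap was not counted. OLIG2 and SOX10 overlap widely, and bcan, hapln1a and FABP7 are at 0 in most oligodendrocytes.

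Some genes for proteins of the myelin membrane, though not all, separated the sides without overlap. How many of all measured genes do so was not counted, so lack of overlap, here and below, is not shown to be particular to the genes named. The cell surface protein cd59a, a complement inhibitor that zebrafish myelinating cells express, was at 30934 to 140612 CPM in oligodendrocytes (median 62652) and at 0 to 1060 CPM in other cells (median 4.29). Its cells did not overlap between the sides, and the sums were 359-fold apart (339 to 381). The genes plp1b, cd59a and mbpa together took 7.29% to 26.2% of the reads of an oligodendrocyte (median 13.5%), against 0% to 0.186% in other cells. The sides were split on plp1b, so its part of this gap follows from the rule. Reads of these genes in the other side came from few cells, and without the 4 cells over 100 CPM of plp1b the log2 ratio was 12.29 for cd59a and 8.98 for mbpa, against 8.48 and 6.53 with them.

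Adhesion and junction proteins of myelin followed the same division. mag, the myelin-associated glycoprotein of the membrane next to the axon, was at 115 to 6539 CPM in oligodendrocytes and at 0 to 10.9 CPM in other cells, with sums 1076-fold apart (641 to 1968). cldnk, a claudin of zebrafish myelin, was at 1594 to 8103 CPM in oligodendrocytes and at 0 to 355 CPM in other cells. CLDN19, another claudin, was at 1066 to 5700 CPM in oligodendrocytes and at 0 to 635 CPM in other cells. The cells of the 2 sides did not overlap for any of these genes. GJB1 (ENSDARG00000035553), whose mammalian relative forms gap junctions within myelin, was at 327 to 5897 CPM in oligodendrocytes and at 0 to 22.7 CPM in other cells.

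Over the list of compact myelin and membrane proteins, 20 of 25 measured members stood 2-fold or more above the other cells and 3 stood 2-fold or more below them, with a median log2 ratio of 4.22 (interval over members 1.70 to 7.69). Over all measured genes the shares past 2-fold were 26.1% on the higher and 39.6% on the lower side. The list was chosen with the same kind of cells in mind as the rule, so its direction is no independent support. The members on the low side were cd9a, cnp and PMP22. cnp was at 10.8 CPM in oligodendrocytes and 513 CPM in other cells, with at least 5 reads in 1 and 10 cells. Its mammalian relative is a classical enzyme of oligodendrocytes. PMP22 rests on 1 other cell, with sums of 13.7 and 42.2 CPM, and 13.7 and 0.175 CPM without lesion cell 4.

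Enzymes that make myelin lipids were higher in the oligodendrocytes, and those of cholesterol synthesis were not. Of 23 measured genes of myelin lipid synthesis 18 were 2-fold or more higher and 3 lower by as much (median 2.59). Over all measured genes the shares were 26.1% higher and 39.6% lower. scdb, a desaturase of fatty acids, was at 640 to 3183 CPM in oligodendrocytes (median 1872) and at 0 to 590 CPM in other cells (median 6.54), without overlap. ELOVL1 (ENSDARG00000103735), which lengthens fatty acids, was at 457 to 7158 CPM in oligodendrocytes (median 4406) and at 0 to 3750 CPM in other cells (median 218). UGT8, which makes the galactolipids of myelin, was detected in 15 oligodendrocytes and in 2 other cells, with sums of 653 and 121 CPM. FA2H, which hydroxylates the fatty acids of those lipids, was detected in 10 oligodendrocytes and in no other cell, with 1790 reads against 4. The median of the list was 2.24 among cells of rows B to E, against 5.18 among those of F to H.

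Cholesterol is a main lipid of myelin. Of 13 measured genes of its synthesis 1 was higher in oligodendrocytes and 8 lower, by 2-fold or more, with a median of -1.70. Shares over all measured genes were 26.1% higher and 39.6% lower. Without lesion cell 16 the lower genes numbered 7. FDPS, an enzyme of the shared isoprenoid pathway, had sums of 10.1 CPM in oligodendrocytes and 116 CPM in other cells and was detected in 1 and 7 cells. insig1, a sterol sensor, had 91.1 and 298 CPM, or 192 CPM in other cells without lesion cell 3. srebf2, which codes for the factor that switches the pathway on, had 80.6 and 45.8 CPM. apoeb, an apolipoprotein that carries cholesterol between cells, was at 846 to 30933 CPM in oligodendrocytes (median 4082) and at 0 to 742 CPM in other cells (median 0), and the sides did not overlap.

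apoeb is also a marker of zebrafish microglia, so other microglial genes were examined. Of 35 symbols on the microglia and macrophage list 2 genes were measured, apoeb and AIF1L. SPI1, LCP1, csf1ra, csf1rb and ptprc had no read in any lesion cell, and of 3 genes under the symbol MPEG1 only ENSDARG00000043093 had reads, in 1 oligodendrocyte (11.2 CPM over that side). The summed level of the list was 846 to 31012 CPM in oligodendrocytes and 0 to 1078 CPM in other cells. apoeb was thus high in oligodendrocytes while the defining genes of microglia were at or near 0.

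Transcription factors of the lineage fell into 2 kinds, those present on both sides (OLIG2, SOX10, SOX2) and those mostly on 1 side (MYRF, NKX6-2, NKX2-2, SOX5, SOX6). OLIG2, the source gene of the transgene, was at 2899 to 18953 CPM in oligodendrocytes (median 8117) and at 478 to 14220 CPM in other cells (median 3261), with at least 5 reads in all 32 cells. SOX10, a factor of the whole lineage, was detected in 15 oligodendrocytes and 8 other cells, with sums of 656 and 447 CPM. olig1 was detected in 5 oligodendrocytes and 6 other cells, with sums of 142 and 418 CPM, or 269.8 CPM in other cells without lesion cell 5, when it was no longer 2-fold lower. MYRF, the factor that switches on myelin genes, was detected in 15 oligodendrocytes and 2 other cells, with sums of 282 and 8.15 CPM. NKX6-2, a factor of mature oligodendrocytes, was detected in 14 oligodendrocytes and 1 other cell (4087 and 9 reads), and NKX2-2, a factor of the lineage, in 0 and 4 cells (0 and 569 reads). SOX2, a factor of neural progenitors, was detected in 8 cells of each side, with sums of 244 and 245 CPM. Without lesion cell 4 its sum in other cells was 124.5 CPM (log2 ratio 0.97). SOX6 and SOX5, which hold OPCs in the progenitor state in mammals, had 0 and 1 read over all oligodendrocytes, against 602 and 385 reads in other cells. The sum of SOX5 in other cells was 62.7 CPM, or 40.7 CPM without lesion cell 13.

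Apart from myelin genes, those with the largest ratios toward oligodendrocytes included regulators and a lipid enzyme. The rule took the 12 genes with the largest log2 ratio among 378 that reached 50 CPM and at least 5 reads in 60% of oligodendrocytes and kept their direction in the mean over cells and in either part of the plate. The 11 reported are BHLHE40, mag, GJB1, ppp1r14aa, ABHD3, plp1b, cd59a, NDRG1 (ENSDARG00000032849), TNFAIP8L3, GLIPR2 and ARRB2 (ENSDARG00000011545). Among them plp1b is the gene of the split, so its ratio was fixed by it. BHLHE40, a transcriptional repressor linked to hypoxia and the circadian clock, was at 0 to 2331 CPM in oligodendrocytes (median 718) and was detected in 15 of them. Other lesion cells had 1 read of it in all, which gives a 5607-fold higher sum with an interval of 1006 to 221514. ppp1r14aa, an inhibitor of myosin phosphatase, was at 645 to 4530.5 CPM in oligodendrocytes and at 0 to 35.1 CPM in other cells, without overlap.

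ABHD3, an enzyme that cleaves phospholipids, was detected in 13 oligodendrocytes and had no read in other lesion cells. Its sum was 372 CPM in oligodendrocytes, at least 760.4-fold higher than 3 reads over the other side would give. TNFAIP8L3, which binds phosphoinositides, was detected in 12 oligodendrocytes and likewise had no read in other cells (318 CPM, at least 651-fold higher). GLIPR2, a protein of the Golgi membrane, was detected in 15 oligodendrocytes and 1 other cell, with sums of 804 and 1.63 CPM. NDRG1, whose loss in mammals damages peripheral myelin, was detected in 11 oligodendrocytes and no other cell, with sums of 407 and 0.163 CPM. ARRB2, an arrestin that ends signalling of G protein-coupled receptors, was detected in 12 oligodendrocytes and no other cell, with sums of 427 and 0.489 CPM.

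Genes with the largest ratios toward the other lesion cells were nearly silent in every oligodendrocyte. They were picked for those ratios, so their low sums in oligodendrocytes follow from the choice and are no separate result. By the same rule 534 genes passed in that direction, and the 12 named were SCG3, SNAP25 (ENSDARG00000020609), igsf9ba, CPE, TRAF4 (ENSDARG00000003963), SYT4, marcksl1a, CRIP2 (ENSDARG00000033201), cntfr, COTL1, MARCKS (ENSDARG00000008803) and lgi1b. All oligodendrocytes together had 33 reads of these 12 genes. A single cell held 29 of them, spread over 6 genes, and it had 4952 genes with a read, the rank 2 among oligodendrocytes. The remaining reads lay in 4 further cells.

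SCG3, a granin of secretory granules, had no read in any oligodendrocyte and was at 0 to 6265 CPM in other cells (median 286), so it was at least 3305-fold lower. CPE, which processes prohormones in such granules, had 0.664 CPM in oligodendrocytes and 955 CPM in other cells, and SYT4, a synaptotagmin of vesicles, had 0.266 and 540.3 CPM. SNAP25, part of the machinery that fuses vesicles with the membrane, was detected in 0 of 17 oligodendrocytes (exact interval 0% to 19.5%) and in 11 of 15 other cells, at least 1898-fold lower in oligodendrocytes. marcksl1a and MARCKS, substrates of protein kinase C that bind actin and membrane, had sums of 0.664 and 0.797 CPM in oligodendrocytes, against 709.9 and 543 CPM in other cells. COTL1, which binds actin filaments, had no read in oligodendrocytes and was detected in 10 other cells (at least 768-fold lower). igsf9ba, of the immunoglobulin superfamily, had no read in oligodendrocytes and 734 CPM in other cells, or 479 CPM without lesion cell 16. cntfr, a receptor subunit for ciliary neurotrophic factor, had 1 read in oligodendrocytes and was detected in 11 other cells (356 CPM). TRAF4, an adaptor of receptor signalling, had 1.46 CPM in oligodendrocytes and 1303 CPM in other cells.

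**Figure D2:**
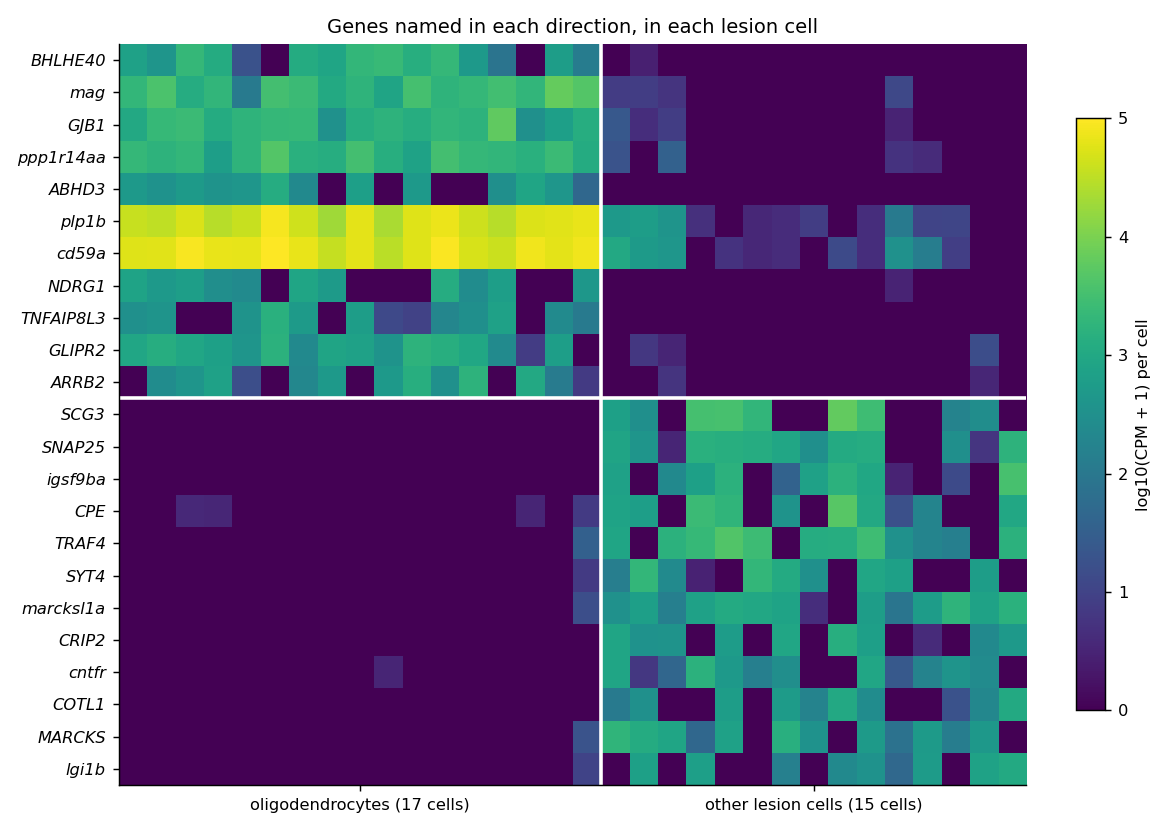
Heat map of log10(CPM + 1) for the 11 genes reported as higher and the 12 as lower in oligodendrocytes (rows) in each lesion cell (columns), with 17 oligodendrocytes left of the white line and 15 other lesion cells right of it. The upper 11 genes are higher on the left, though several of them are at 0 in some oligodendrocytes. Among other cells plp1b and cd59a are above 0 in most, at far lower levels. The lower 12 are at or near 0 in all oligodendrocytes and patchy among the other cells.

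OPC genes were lower in oligodendrocytes, with a few exceptions. Of 25 measured OPC markers 19 were at least 2-fold lower and 3 at least 2-fold higher, against 39.6% and 26.1% of all measured genes. Their median was -3.97 (interval -5.81 to -1.76), or -4.91 with genes at 0 set to their bounds. cspg5a, a proteoglycan of progenitors, had no read in oligodendrocytes and was detected in 9 other cells (177 CPM, or 104 CPM without lesion cell 10). GPR17, a receptor of committed precursors, also had no read in oligodendrocytes and was detected in 2 other cells (70.22 CPM, at least 176-fold lower, but 8.06 CPM without lesion cell 4). PDGFRA, the classical growth factor receptor of OPCs, had no read in any lesion cell of either side, so it divides nothing here. PTPRZ1 (ENSDARG00000020871) and SERPINE2, a protease inhibitor, went the other way, with sums of 944 and 739 CPM in oligodendrocytes and 76.1 and 251 CPM in other cells.

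Genes of the perineuronal matrix showed a similar pattern, with 11 of 14 at least 2-fold lower and 3 at least 2-fold higher (median -5.14, or -4.30 without lesion cell 14). By as much, 39.6% of all measured genes were lower and 26.1% higher. TNR, the matrix protein tenascin-R, had no read in oligodendrocytes and 202 CPM in other cells. vcanb, a versican, was detected in 8 oligodendrocytes and 4 other cells, with sums of 82.7 and 282 CPM, or 82.7 and 113 CPM without lesion cell 6, when it was no longer 2-fold lower.

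Markers of ependymo-radial glia were lower in oligodendrocytes for 14 of 21 measured genes and higher for 3, at 2-fold (median -4.47). At 2-fold, 39.6% of all measured genes were lower and 26.1% higher. FABP7 (ENSDARG00000007697), a fatty acid carrier of radial glia and progenitors, was at 0 to 531 CPM in oligodendrocytes (median 0) and at 0 to 16088 CPM in other cells (median 4255). FOXJ1, the regulator of motile cilia, was detected in 1 oligodendrocyte and 5 other cells, with sums of 1.99 and 206 CPM, or 136 CPM in other cells without lesion cell 15. VIM (ENSDARG00000010008), the intermediate filament vimentin, was detected in 16 oligodendrocytes and 9 other cells, with sums of 774 and 1376 CPM. nes, the filament nestin, had the higher sum in oligodendrocytes, at 454 CPM against 146 CPM in other cells.

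Neuronal genes were mostly low in oligodendrocytes. Of 20 measured neuron markers 16 were at least 2-fold lower and 1 was at least 2-fold higher (median -5.36, or -5.96 without lesion cell 29, an oligodendrocyte). Among all measured genes the shares were 39.6% lower and 26.1% higher. STMN2 (ENSDARG00000033234), a microtubule regulator of growing axons, had no read in oligodendrocytes and was detected in 6 other cells (444 CPM, or 261 CPM without lesion cell 8). ELAVL3, an RNA-binding protein used as a neuron marker, was present on both sides, in 12 oligodendrocytes and 9 other cells, with sums of 252 and 232 CPM. GNG3, a G protein subunit, was likewise detected in 16 oligodendrocytes and 13 other cells, with 762 and 496 CPM. All 13 measured motor neuron and neurogenic factors were at least 2-fold lower in oligodendrocytes (median -6.94, or -6.34 without lesion cell 8). No oligodendrocyte had more than 2 members of this list at 5 reads, so they passed the measured filter largely through the other cells. Their shared direction therefore follows in part from the filter. ISL1 and MNX1, factors of motor neurons, had no read in any oligodendrocyte and were both detected in the same 3 other cells (259 and 71.5 CPM). Without lesion cell 8 the sum of MNX1 was 35.3 CPM. nhlh2, EBF3 and EBF2, factors of young neurons, had at most 1.06 CPM in oligodendrocytes and 253 to 414 CPM in other cells. Without lesion cell 3 the sums of nhlh2 and EBF3 there were 235 and 97.6 CPM. The summed level of the motor neuron and neurogenic list was 0 to 15060.4 CPM in other cells (median 105.2), so it came from part of them. Ependymo-radial glia markers summed to 3155 CPM or more in each of the 15. Their sum was 1006 to 4777 CPM in oligodendrocytes, so the sides overlapped and a sum of that size does not mark a cell as radial glia.

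Genes of Notch signalling, which holds progenitors undifferentiated, were lower in oligodendrocytes for 18 of 21 and higher for 1 (median -4.54, or -3.30 without lesion cell 13). These counts are at 2-fold, where 39.6% of all measured genes were lower and 26.1% higher. dlb, a Delta ligand, had 1 read in oligodendrocytes and was at 0 to 3674.5 CPM in other cells, where 5 cells had at least 5 reads and the sum was 636 CPM, or 335 CPM without lesion cell 3. her4.1 and her4.2, targets of the pathway, had sums of 5.18 and 8.23 CPM in oligodendrocytes and 442 and 414 CPM in other cells, or 246 and 55.6 CPM there without lesion cell 13. These 2 genes are near-identical copies, so reads may be divided between them. her15.1, a further target, was detected in 6 oligodendrocytes and 5 other cells, with sums of 129 and 236 CPM. Without lesion cell 13 its sum in other cells was 101 CPM (log2 ratio 0.34).

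Receptors and surface molecules for neural contact were lower too. Of 11 measured glutamate receptor genes 8 were at least 2-fold lower and 0 at least 2-fold higher (median -6.45, or -5.47 without lesion cell 10). Shares over all measured genes were 39.6% lower and 26.1% higher. No oligodendrocyte had more than 2 members of the glutamate receptor list at 5 reads, so their direction follows in part from the measured filter. GRIA2 (ENSDARG00000052765), a subunit of AMPA receptors, had no read in oligodendrocytes and was detected in 5 other cells (814 CPM, at least 2044-fold lower, or 507 CPM without lesion cell 5). GRIN1 (ENSDARG00000027828), the common subunit of NMDA receptors, had 1 read in oligodendrocytes and was detected in 6 other cells (525 CPM, or 339 CPM without lesion cell 10). All 6 also had bcan, but so did 7 of the other cells without GRIN1, and only 2 had neither. GLRA2, a glycine receptor subunit, had no read in oligodendrocytes and 38.1 CPM in other cells, or 11.1 CPM without lesion cell 6. cacnb4b, a calcium channel subunit, had no read in oligodendrocytes and was detected in 8 other cells (334 CPM, or 222 CPM without lesion cell 7).

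In the axon guidance list 16 of 23 genes were at least 2-fold lower and 3 at least 2-fold higher (median -4.04, or -3.14 without lesion cell 13). For this list and those below, the shares over all measured genes were 39.6% lower and 26.1% higher. SEMA5A, a guidance molecule that in mammals is made by oligodendrocyte lineage cells, had 1 read in oligodendrocytes and was at 0 to 8348 CPM in 15 other cells, of which 7 had at least 5 reads. The ratio of its sums was 16246-fold lower, with an interval of 2915 to 641727. SEMA6D and EFNA1 (ENSDARG00000018787) stood higher in oligodendrocytes, with sums of 109.7 and 148 CPM against 38.0 and 66.6 CPM in other cells. Without lesion cell 30, an oligodendrocyte, EFNA1 was at 93.7 CPM in oligodendrocytes and no longer 2-fold higher. Of 34 synaptic adhesion and axon-glia contact genes 24 were lower and 5 higher (median -4.13, or -2.92 without lesion cell 5). CADM4, an adhesion protein that in mammals joins myelin to the axon, was detected in 16 oligodendrocytes and 11 other cells, with sums of 762 and 630.5 CPM. Of 28 growth factor and receptor genes of the lineage 19 were lower and 6 higher (median -3.41). CXCL12, a chemokine that guides progenitors, had no read in oligodendrocytes and was detected in 8 other cells (572 CPM, at least 1435-fold lower).

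Housekeeping groups differed far less. All 76 measured ribosomal protein genes had a log2 ratio below 0, and 50 were at least 2-fold lower, against 39.6% of all measured genes. Their median was -1.12 (interval -1.16 to -1.05), which is 0.69 below the median of all genes. RPLP0 was at 386 to 2209 CPM in oligodendrocytes (median 926) and at 485 to 7281 CPM in other cells (median 2161). The 13 mitochondrially encoded genes had a median of 0.06, and none differed 2-fold. With totals scaled by edgeR's trimmed mean of M values (TMM), which moved log2 ratios by 0.47, or less for low genes because of the added 1 CPM, and the median of all genes to 0.03, the ribosomal median was -0.65, with 13 genes 2-fold or more lower, and the mitochondrial one 0.53, with 1 gene 2-fold or more higher. The medians of the actin list (-0.44) and of the AP-1 list (-0.36) were 0.03 and 0.10 under that scaling, and other ratios just below 0 can change sign as well.

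Cytoskeletal genes split by gene. STMN1 (ENSDARG00000033655), a microtubule destabiliser, was at 5248 to 20689 CPM in oligodendrocytes (median 12849) and at 264 to 7791 CPM in other cells (median 3377), and 16 of 17 oligodendrocytes stood above every other cell. tubb5, a tubulin of young neurons and progenitors, was at 0 to 2501 CPM in oligodendrocytes (median 15.24) and at 0 to 9857 CPM in other cells (median 1650.1). actb2, a cytoplasmic actin, was at 1278 to 10979 CPM in oligodendrocytes (median 3242) and at 2147 to 24044 CPM in other cells (median 14154). Over 40 tubulin and microtubule-associated genes 21 were at least 2-fold lower and 5 higher (median -1.57), and over 43 actin genes 16 were lower and 6 higher. Of all measured genes 39.6% were lower and 26.1% higher by as much. The actin median of -0.44 lay near that of all measured genes, -0.42, so the actin list as a whole did not stand apart.

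Stress genes overlapped between the sides. JUN had sums of 1261 CPM in oligodendrocytes and 1288 CPM in other cells, and FOS, its partner in the AP-1 factor, had 908 and 477 CPM. hsp70l, a heat shock gene that tissue handling can raise, was at 0 to 32041 CPM in oligodendrocytes (median 3109) and at 0 to 15204 CPM in other cells (median 127), and the part of the warm dissociation in these values was not tested. HSPA8 (ENSDARG00000068992), the constitutive chaperone, was at 0 to 3932 CPM in oligodendrocytes (median 2352) and at 1044 to 5994 CPM in other cells (median 4758). Of 32 chaperone genes 18 were at least 2-fold lower and 2 higher (4 without lesion cell 6), with a median of -1.17. Over all measured genes 39.6% were lower and 26.1% higher by as much.

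In the lysosome list 12 of 30 genes were 2-fold or more higher and 4 lower by as much (median 0.31). Without lesion cell 12, an other cell, 16 genes were higher and the median was 1.23. ctsla, a cathepsin protease, was detected in 15 oligodendrocytes and 12 other cells, with sums of 1827 and 629 CPM, and CTSD, another cathepsin, in 17 and 8 cells, with 944 and 427 CPM. Among cells of rows B to E this list had a median of 0.097, against 3.0 for F to H, and the part of plate position in it was not tested. Genes of glycolysis and lactate transport had a median of -0.95, with 4 of 20 higher (2 without lesion cell 22, an oligodendrocyte) and 10 lower. For both lists the shares over all measured genes were 26.1% higher and 39.6% lower, and the glycolysis counts were not far from them. ALDOC (ENSDARG00000019702), the aldolase of brain, had sums of 347 CPM in oligodendrocytes and 2076 CPM in other cells.

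Genes of DNA replication and division gave values that rested much on single cells. Of 15 measured DNA replication genes 3 were 2-fold or more higher and 10 lower (median -2.02), and of 5 mitosis genes 0 were higher and 4 lower (median -1.86). Among all measured genes 26.1% were higher and 39.6% lower by as much. Without lesion cell 2 the replication median was -0.78 with 6 genes lower, and without lesion cell 26, an oligodendrocyte, the mitosis median was -3.63. PCNA, the sliding clamp of replication, was detected in 5 oligodendrocytes and 3 other cells, with sums of 74.2 and 393 CPM, or 74.2 and 128 CPM without lesion cell 2, when it was no longer 2-fold lower. plk1, a mitotic kinase, had no read in oligodendrocytes and was detected in 4 other cells (43.5 CPM, or 11.2 CPM without lesion cell 2).

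Antigen presentation and interferon genes differed in both directions, with 4 of 17 at least 2-fold higher and 6 lower, log2 ratios from -5.15 to 4.36 and a median of 0.00, which are shares near those of all measured genes. mhc1zba, an MHC class I gene, was detected in 15 oligodendrocytes and 14 other cells, with sums of 1128 and 1322 CPM. b2m, whose protein pairs with the MHC class I chain, was detected in 11 oligodendrocytes and 13 other cells, with sums of 409.7 and 904 CPM. Alleles of MHC class I vary from fish to fish, which can shift the counts of mhc1zba.

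**Figure D3:**
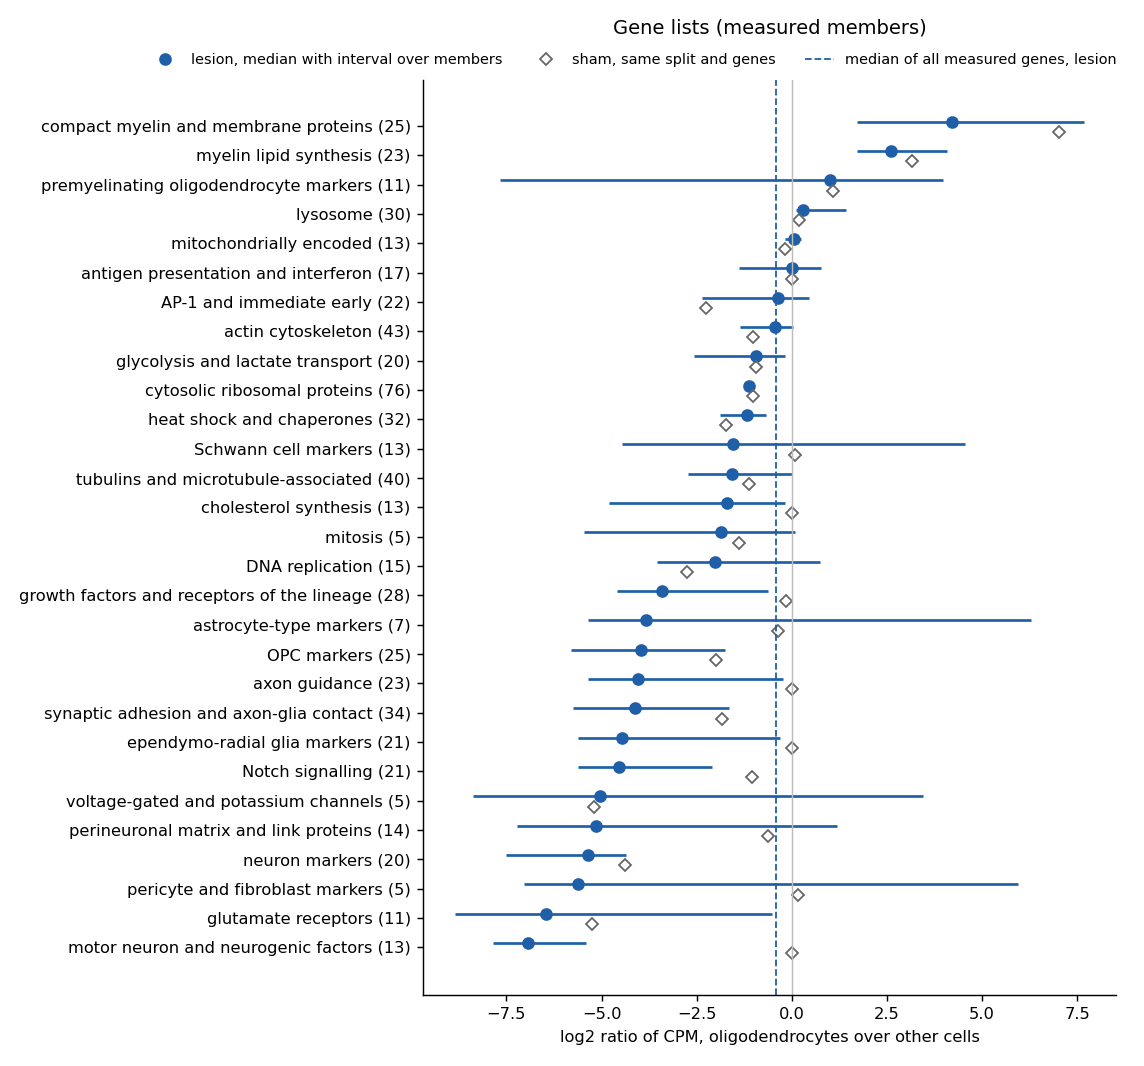
Median log2 ratio of oligodendrocytes over other cells for each gene list with at least 5 measured members (number in brackets), in lesion cells with the 95% interval over members (blue) and in sham cells under the same threshold (open diamonds), beside the median of all measured genes in lesion cells at -0.42 (dashed). Compact myelin (4.22) and myelin lipid synthesis (2.59) stand at the top and motor neuron and neurogenic factors (-6.94) at the bottom, and sham diamonds lie near 0 also where both sham sides have almost no reads of a list.

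Several pairs of related genes lay on opposite sides. These pairs were picked after their values were seen. cd9b, a tetraspanin, was detected in all 17 oligodendrocytes and in 9 other cells, with sums of 2681 and 293 CPM, whereas its copy cd9a had 0.133 CPM in oligodendrocytes and 258 CPM in other cells. PTPRZ1 ENSDARG00000020871, a receptor phosphatase, was detected in 15 oligodendrocytes and 4 other cells, while PTPRZ1 ENSDARG00000051814 reached 5 reads in no oligodendrocyte and in 4 other cells (0.664 and 48.9 CPM, or 20.1 CPM in other cells without lesion cell 13). The glutamate transporter gene SLC1A3 (ENSDARG00000104431) was detected in 9 oligodendrocytes and no other cell, with sums of 215 and 1.79 CPM. SLC1A2 (ENSDARG00000102453), a second glutamate transporter, was detected in 3 oligodendrocytes and 9 other cells, with sums of 27.5 and 1178 CPM. HAPLN2, the link protein of nodes of Ranvier in mammals, was detected in 4 oligodendrocytes and 1 other cell (157 and 2.12 CPM, or 51.5 CPM in oligodendrocytes without lesion cell 29, an oligodendrocyte), against 1 and 7 cells for hapln1a.

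**Figure D4:**
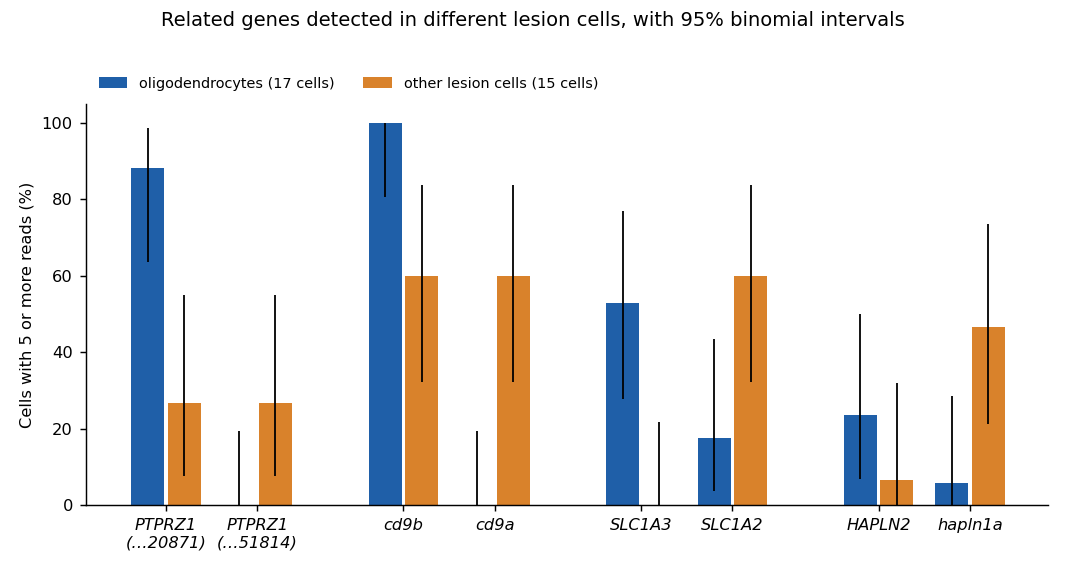
Percentage of 17 oligodendrocytes (blue, left) and 15 other lesion cells (orange, right) with at least 5 reads of 4 pairs of related genes, with exact 95% binomial intervals as lines. In each pair 1 gene is found in more oligodendrocytes (for cd9b 100% against 60%) and its relative in more other cells (for cd9a 0% against 60%).

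Markers of other cell types that the sort could hold were sparse in the oligodendrocytes. Of the defining markers of endothelium, cdh5 and flt1 had 0.266 CPM each in oligodendrocytes, and kdrl and TIE1 had no read. COL1A1, COL1A2 and PDGFRB, markers of fibroblasts and pericytes, had no read on either side, while acta2, a smooth muscle actin, had at least 5 reads in 8 oligodendrocytes and 1 other cell (171 and 1.79 CPM, or 110.7 CPM in oligodendrocytes without lesion cell 17, an oligodendrocyte). The blood and muscle list held 3 measured genes. Its member cahz, a carbonic anhydrase, was detected in 11 oligodendrocytes and 1 other cell (438.5 and 1.63 CPM), while the globin genes hbaa1 and hbaa2 had no read. Of Schwann cell markers, prx had no read on either side, and pmp22a and EGR2 had none in oligodendrocytes. PMP22 was detected in 2 oligodendrocytes and 1 other cell (13.7 and 42.2 CPM, or 0.175 CPM in other cells without lesion cell 4). The list shares members such as mbpa, mbpb and CLDN19 with central myelin, and 5 of its 13 genes were at least 2-fold higher and 7 lower (median -1.56, or 0.66 without lesion cell 4). Shares over all measured genes were 26.1% higher and 39.6% lower.

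Myelin genes varied among the oligodendrocytes themselves. mbpb, a second myelin basic protein gene, was at 0 to 19194 CPM (median 719), and 2 oligodendrocytes had fewer than 5 reads. Other lesion cells were at 0 to 1765 CPM, and 8 oligodendrocytes stood above that. Over the 17 cells mbpb and apoeb ranked alike, with a Spearman correlation of 0.73, whereas mbpb and mbpa had -0.32. plp1b had a correlation of 0.70 with cd59a and 0.09 with mbpa. These correlations describe 17 cells of 1 pool whose CPM values share a total, and 2 genes that take much of a library constrain each other.

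Of the 8 genes with the widest spread among oligodendrocytes, at 100 CPM or more, 7 are reported, namely anxa13l, anxa13, SNCG, HSP90B1, zgc:153031, SND1 and ATF3. anxa13l, an annexin, was at 0 to 2581 CPM and detected in 9 oligodendrocytes, against 0 to 551 CPM and 4 other cells. SNCG, a synuclein, was at 0 to 1494 CPM, with 7 oligodendrocytes above every other cell and 10 others with fewer than 5 reads. ATF3, a stress-induced factor, was at 0 to 8985 CPM (median 478) in oligodendrocytes and at 0 to 3231 CPM (median 576) in other cells. krt8, a keratin, was detected in 9 oligodendrocytes and 4 other cells, and 7 oligodendrocytes had both krt8 and anxa13l against 1 other cell.

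**Figure D5:**
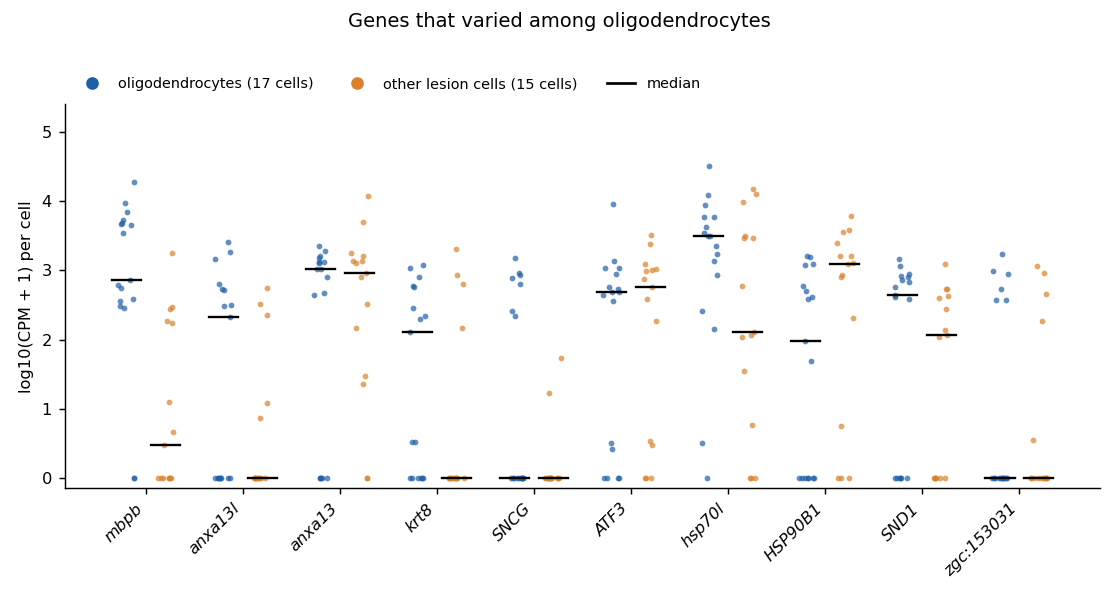
Level of 10 genes that vary among oligodendrocytes, as log10(CPM + 1) in each lesion cell, for 17 oligodendrocytes (blue, left) and 15 other lesion cells (orange, right) with medians as black lines. Cells of both sides range from 0 to over 1000 CPM for most genes, and SNCG is above 200 CPM in 7 oligodendrocytes and at most 52.4 CPM in any other cell.

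The same threshold was applied to sham cells. The sham values rest on 29 oligodendrocytes and 6 other cells of 1 pool, and they were set beside the lesion values without a test. Sham cells lay in plate columns 1 to 6 and lesion cells in columns 7 to 12, so group and plate column cannot be told apart. Compact myelin genes had a median of 4.22 in lesion and 7.01 in sham cells, and neuron markers -5.36 and -4.38. The genes were those measured in lesion cells, so a list that was high in lesion cells alone has no readable sham ratio. Motor neuron and neurogenic factors were such a list, with a median summed level of 3.75 CPM in sham oligodendrocytes and 4.55 CPM in other sham cells. Ependymo-radial glia markers summed to a median of 1712 CPM in sham oligodendrocytes and 6533 CPM in other sham cells, against 1958 and 10376 CPM on the same sides of the lesion group. bcan was detected in all 6 other sham cells and hapln1a in none of them.

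Genes named for lesion cells were picked for the size of their lesion ratio, so a smaller ratio in sham cells follows in part from the choice and is given as a value only. BHLHE40 had a log2 ratio of 9.62 in lesion and 1.21 in sham cells, where 1061 CPM in oligodendrocytes stood against 459 CPM in other cells. TNFAIP8L3 had 8.32 and 1.29, ARRB2 8.17 and 1.70, and ABHD3 8.54 and 3.26. For these genes the sham oligodendrocytes were at 133 to 1061 CPM, and the other sham cells at 20.98 to 459 CPM. mag (9.55 and 9.5), GJB1 (8.94 and 9.09) and GLIPR2 (8.26 and 8.88) had like ratios in both groups. anxa13l had no read in any sham cell.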

How the data were processed

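Each cell has a column of raw counts, whole numbers of reads per gene, in the single table that the authors deposited. The submitters' processing notes name bcl2fastq 2.19.1, GSNAP with GRCz10, and featureCounts 1.6.2, whereas 1.6.3 stands in the file header. Genes are those of Ensembl release 87, counted without strand (-s 0) at mapping quality 1 or more (-Q 1), per the file headers. Antisense partners therefore cannot be told apart, and near-identical copies (hsp70, her4, MHC class I) may lose or share reads.

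The 92 spike-ins (71 reads) were left out. Of 32266 gene IDs, 26433 had a symbol. All cells passed 10000 reads and 500 genes, and no doublet caller was run. Counts were summed per side and scaled as CPM (Python 3.11.15, pandas 2.3.3, scipy 1.17.1). Counts carry exact 95% Poisson or binomial intervals, and shares Clopper-Pearson ones. A gene at 0 was set against 3 reads over that side. Detection means 5 reads in a cell. List intervals are binomial over members. Ratios were tested on simulated counts.

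The rule named 12 genes per direction, the 4 most abundant measured members of each of 34 lists, the 8 of widest spread among oligodendrocytes, and a fixed set of markers. Some genes it named are not reported here. Further list members named were chosen after their values were seen. Members and lists were chosen with earlier results of these data known. TMM (edgeR 4.0.16) and DESeq2 1.42.0 size factors served only as other scalings.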

Additional observations from a re-analysis of the deposited data

Results flagged for a closer look

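For 3 named genes the oligodendrocytes stood at least 2-fold lower than the other cells in the lesion group and at least 2-fold higher in the sham group. They were found by a search over every gene that the rule named, fixed markers included. The share of all measured genes with such opposite directions was not counted. Each group is 1 pool, and the difference between the groups was not tested. KCNJ10 (ENSDARG00000090815), a glial potassium channel, had a log2 ratio of -1.50 in lesion cells, from 6.24 CPM in oligodendrocytes and 19.6 CPM in other cells, and 3.99 in sham cells. Without lesion cell 2 the lesion values were 6.24 and 10.2 CPM (-0.63), so it was no longer 2-fold lower. Its reads in lesion oligodendrocytes came almost wholly from lesion cell 23, an oligodendrocyte at 97.1 CPM. MDK (ENSDARG00000036036), a midkine growth factor, had -4.80 in lesion cells, where 10.1 CPM stood against 308 CPM, and 7.63 in sham cells, where 275 CPM stood against 0.388 CPM. Without lesion cell 14 its lesion ratio was -3.17. The other gene under that symbol, MDK ENSDARG00000020708, was lower in oligodendrocytes of both groups (-4.48 and -8.29; -3.40 in lesion cells without lesion cell 5). ifi27.1, a gene of the interferon response, had -2.80 in lesion cells and 1.44 in sham cells, and it rests on lesion cell 7, an other cell at 8814 CPM. Without that cell the lesion values were 102 and 193 CPM (-0.91), so it was no longer 2-fold lower.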

How the results depend on the processing

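List directions held under most settings. Genes at least 2-fold higher numbered 2001, 3590 without a filter and 3171 in plate rows F to H, and those lower 3036, and 6284 without a filter. In rows F to H the median was 5.18 for myelin lipids, -6.05 for Notch, -8.07 for motor neuron factors, -0.97 for ribosomal genes and 3.0 for lysosome genes, and in rows B to E -4.97, -1.30 and 0.097 for the last 3. Adding 0.1 CPM gave -6.00 for OPC markers, -8.46 for neuron markers, -9.48 for motor neuron factors, -5.64 for Notch and -5.71 for axon guidance, and adding 10 CPM gave -2.70 for neuron markers and -4.07 for motor neuron factors, which had -5.38 in thinned cells and -4.88 without a filter. The ribosomal median was -1.0 at 20000 CPM of plp1b, -0.65 with TMM, -0.73 with DESeq2 factors, -0.75 without the 50 most abundant genes in the totals, -1.37 without each gene's highest cell and -1.19 in thinned cells and without cells over 5000 genes. The mitochondrial median was 0.53, 0.45 and 0.43 with TMM, DESeq2 factors and those totals. The Schwann cell median was -1.56, but 0.60 without each gene's highest cell, 3.72 at 20 CPM and 1.63 in rows F to H. Without the 4 other cells over 100 CPM of plp1b, chosen after seeing the data, it was 0.36, and that of lysosome genes 1.88. Leaving out 1 cell gave -2.37 to 0.66 for Schwann markers, positive without lesion cell 4, -1.21 to -0.996 for ribosomal and -0.058 to 0.26 for mitochondrial genes. The cause of these shifts was not tested. No paired analysis was possible because the result comes from no test.

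Depth limits what a 0 means: thinning to 313824 reads kept 17 oligodendrocytes and 11 other cells, and a gene under 5 reads in a cell counts as not detected, not as absent.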
